A study of Mus musculus with 2 samples.

Results

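Hyaluronan synthesis, binding and breakdown were examined in cultured intestinal subepithelial myofibroblasts (ISEMFs) through 9 genes, taken by symbol from the 37309 genes of the deposited table. These are the synthases Has1, Has2 and Has3, the receptors Cd44 and Hmmr, the matrix binders Vcan and Tnfaip6, and the hyaluronidases Hyal1 and Hyal2. All 9 were found, each as a single row. RNA sequencing compared 1 library of supportive ISEMFs with 1 library of non-supportive ISEMFs, both from the small intestine of wild type C57BL/6 mice and both isolated and grown the same way in a medium that holds serum, insulin, transferrin and EGF. The supportive cells came from neonates, 5 days old in the study's methods, and sustained enteroids without added R-spondin. The non-supportive cells came from adults, 2 months old, and sustained them weakly. Each population is a passaged culture grown out of enzymatically digested mesenchyme, and the methods do not give the passage of the sequenced cells. The deposited table is named with P16 for the supportive and P3 for the non-supportive cells, which the sources do not explain. Age, isolation, a difference in passage if these tags mark it, and the population cannot be told apart in any ratio given here.

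Hyaluronan is a long, unsulfated sugar chain made at the plasma membrane. Synthases join glucuronic acid and N-acetylglucosamine from UDP-sugars and push the growing chain out of the cell, where it binds versican, TSG-6 and cell surface receptors and is later cut by hyaluronidases. In gut and other connective tissue, fibroblasts and smooth muscle cells are its main makers, and the coat it forms holds water around the cells and is remodelled in growth and inflammation.

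Non-supportive ISEMFs held more Has2 and Cd44, and supportive ISEMFs held more Vcan, Tnfaip6 and Hyal1, while Hmmr and Hyal2 differed by less than 2-fold and Has1 and Has3 were low in both. Levels are given as RPKM, reads scaled by the exon length of the gene and by library size. A gene counted as different where RPKM reached 1 in at least 1 library and log2(RPKM + 0.1) differed by at least 1, that is 2-fold. Of the 9 genes, 7 reached that level, with 3 past 2-fold on the supportive side and 2 on the non-supportive side. In the table as a whole, of 10086 genes at that level, 9.01% were at least 2-fold higher, 9.27% at least 2-fold lower and 18.3% either. Hyal1 and Tnfaip6 reached the level in the supportive library only, so a gene at their values could hardly enter without a difference, and the count of 5 is a description. With 1 library per population no difference has a replicate check. The intervals given with each ratio are exact 95% intervals of the reads and cover counting error only, and in such cultures fewer cells of a type and less RNA per cell cannot be told apart.

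**Figure D1:**
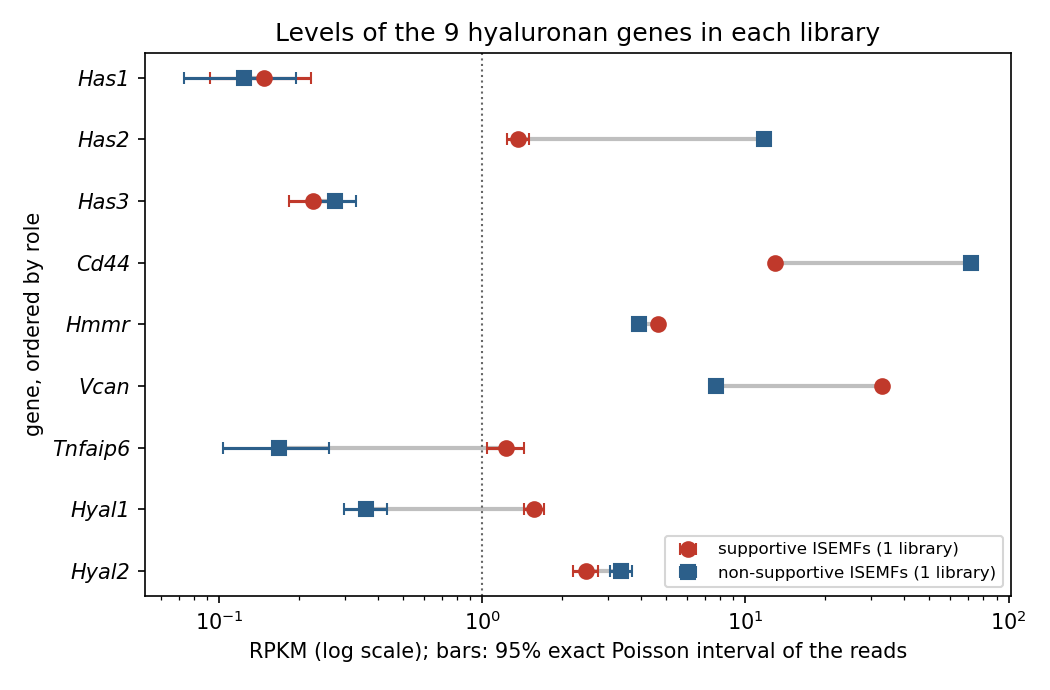
RPKM (log axis) of the 9 genes in supportive (red circles) and non-supportive (blue squares) ISEMFs, 1 library each, with 95% exact Poisson intervals of the reads and a dotted line at an RPKM of 1. Has2 and Cd44 lie to the right in the non-supportive library (11.8 and 71.9), Vcan, Tnfaip6 and Hyal1 in the supportive one (33.1, 1.23 and 1.57), and Has1 and Has3 stay left of the line in both.

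Has2, which makes long hyaluronan chains and is the synthase needed in the embryo, was the main synthase of both libraries. It lies on the minus strand of chromosome 15 of mm9 from 56497182 to 56526094 in 4 exon blocks. The supportive library held 413 reads and an RPKM of 1.36, and the non-supportive library 3463 reads and an RPKM of 11.8. Has2 was thus 8.63-fold lower in supportive ISEMFs (interval 7.79 to 9.58), a log2 ratio of -3.02, with only 1.74% of all genes at an RPKM of at least 1 having a lower ratio. Its rank among the 22379 protein-coding genes was 2143 in non-supportive and 7770 in supportive ISEMFs. The antisense gene Has2as shares 182 of the 4237 exon bases of Has2, and the sources do not say whether reads were counted by strand. If they were not, reads on the shared bases were left out, which can lower the level of Has2. Has2as itself had 25 and 50 reads.

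Has1 and Has3 make hyaluronan too, Has3 mostly shorter chains. Has1 had 22 reads in supportive and 18 in non-supportive ISEMFs, RPKM values of 0.147 and 0.124. Their ratio of 1.19 carried an interval of 0.608 to 2.35, and no difference could be detected with these reads. Has3 had 96 and 113 reads, RPKM values of 0.227 and 0.275, and a ratio of 0.826 (interval 0.622 to 1.09). For both, the interval of the ratio included 1. Summed over the 3 synthases, the RPKM was 1.74 in supportive and 12.2 in non-supportive ISEMFs. Of that sum, Has2 made 78.5% in supportive and 96.7% in non-supportive ISEMFs.

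Cd44, the main cell surface receptor of hyaluronan and also a receptor of osteopontin, was 5.55-fold lower in supportive ISEMFs (interval 5.44 to 5.66). Its gene lies on chromosome 2 of mm9, minus strand, from 102651298 to 102741822. It had 11405 reads in the supportive library against 61510, and RPKM values of 13.0 and 71.9, a log2 ratio of -2.46. At rank 269 of the protein-coding genes it was the highest of the 9 in non-supportive ISEMFs, and at rank 1785 next to Vcan in supportive ISEMFs. Cd44 is known for splice forms with and without variable exons, the annotation gives it 14 transcripts, and reads per gene do not separate these. The 250 bases before the start of Cd44, from RefSeq on GRCm38.p6 at chr2:102901666-102901915, minus strand, are printed because Cd44 was the most abundant of the genes that were lower. No match to any of the 7 motifs searched in these windows was present, so no letter is in capitals.
Cd44: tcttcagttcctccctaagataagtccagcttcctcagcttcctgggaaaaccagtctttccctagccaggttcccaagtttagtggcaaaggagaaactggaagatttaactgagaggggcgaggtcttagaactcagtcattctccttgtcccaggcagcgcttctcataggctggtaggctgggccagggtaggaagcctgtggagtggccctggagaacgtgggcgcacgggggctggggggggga

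The motifs were AP-1 (TGANTCA), the TATA box (TATAAA), the CCAAT box (CCAAT), the GC box (GGGCGG), the cell cycle homology region (TTTGAA), TCF/LEF (CTTTGNT) and NF-kappaB (GGNNTTTCC), on both strands. Of 32851 RefSeq windows of the same length, 6.75%, 12.4%, 33.8%, 32.7%, 16%, 16% and 4.93% hold them, in that order. Windows were found for 7 of the 9 genes, not for Has2 and Has3. A match is a description of letters and not a bound site.

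Macrophages carry much Cd44 as well, and their markers were also lower in supportive ISEMFs. All 11 genes of a macrophage list were lower in supportive ISEMFs. The 8 that reached an RPKM of 1 were all past 2-fold, against 9.27% of all genes at that level. Only 2 of these 8 reached the level in the supportive library. The others could hardly enter without a difference, so the count is a description. The summed RPKM of the list was 9.55 in supportive and 129 in non-supportive ISEMFs. Lyz2 was at 6.31 and 72.7, Tyrobp at 0 and 30.0, Fcer1g at 0.0525 and 6.97, and Cd68 at 0.449 and 6.48. Ptprc, Adgre1, Itgam, Tyrobp and Aif1, 5 of the 11, had no read in the supportive library. In the non-supportive library, Cd44 had 61510 reads, Lyz2 6629, Tyrobp 1174, Itgam 1070, Ptprc 879 and Adgre1 622. Reads also depend on gene length, so they do not compare levels between genes. The part of such cells in the differences of Cd44, Has2 and Spp1, the osteopontin gene, was not tested.

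Hmmr encodes another hyaluronan-binding protein, which works mainly on the spindle of dividing cells, and its level was close in both cultures. It lies on chromosome 11 of mm9, minus strand, from 40514890 to 40546939. Supportive ISEMFs had 2850 reads and an RPKM of 4.65, and non-supportive ISEMFs 2347 reads and an RPKM of 3.94. The ratio of 1.18 (interval 1.12 to 1.25) exceeded counting error but not 2-fold. Mitosis genes behaved likewise, none of the 11 that reached an RPKM of 1 passing 2-fold, against 18.3% of all such genes. Their median log2 ratio was 0.24, that of all genes at an RPKM of at least 1 was -0.07, and that of Hmmr was 0.23. Among them, Birc5 had a log2 ratio of -0.72, Kif20a 0.71, Cenpf 0.71 and Tpx2 0.43. The 250 bases before the start of Hmmr at chr11:40733438-40733687 of GRCm38.p6, minus strand, are shown for the run of 5 CCAAT boxes, a motif common before genes of dividing cells. All 5 read on the strand opposite the gene, as ATTGG in the printed sequence, and the one that starts 96 bases before the gene overlaps a GC box. Capitals mark matches, and no cell cycle homology region was found. The 33.8% of windows given above hold at least 1 CCAAT box, and windows with 5 were not counted.
Hmmr: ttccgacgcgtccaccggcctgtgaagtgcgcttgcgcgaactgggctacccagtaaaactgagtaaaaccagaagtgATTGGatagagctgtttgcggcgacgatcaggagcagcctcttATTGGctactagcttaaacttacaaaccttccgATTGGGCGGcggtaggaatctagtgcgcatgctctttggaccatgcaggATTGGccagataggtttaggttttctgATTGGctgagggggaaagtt

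Versican, encoded by Vcan, is the large chondroitin sulfate proteoglycan that binds hyaluronan along its chain, and it was the highest of the 9 genes in supportive ISEMFs. Vcan lies on chromosome 13 of mm9, minus strand, from 89794915 to 89882117. Reads numbered 64518, an RPKM of 33.1, in supportive ISEMFs and 14646, an RPKM of 7.73, in non-supportive ISEMFs. The ratio was 4.28 (interval 4.2 to 4.36), a log2 ratio of 2.08, and the rank among protein-coding genes went from 3028 in the non-supportive to 615 in the supportive library. There was 2.55 times as much Vcan as Cd44 in RPKM in supportive ISEMFs and 0.108 times as much in non-supportive ISEMFs. Versican is known for isoforms that differ in their chondroitin sulfate attachment regions, and its 10 annotated transcripts were not separated.

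Tnfaip6 encodes TSG-6, a secreted protein that moves heavy chains of inter-alpha-inhibitor onto hyaluronan and so cross-links it. It lies on chromosome 2 of mm9, plus strand, from 51893529 to 51912206. The supportive library had 150 reads and an RPKM of 1.23, and the non-supportive library 20 reads and an RPKM of 0.168. The ratio was 7.29, the largest of the 3 higher genes, but with the fewest reads and the widest interval, from 4.56 to 12.3. It ranked 8027 among the protein-coding genes of supportive ISEMFs.

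The windows before Vcan (GRCm38.p6, chr13:89742513-89742762, minus strand) and Tnfaip6 (chr2:52037863-52038112, plus strand) are printed as the matrix binders that were higher together. Capitals mark the motif matches. Both hold CCAAT and GC boxes, and Tnfaip6 alone among the 7 windows holds an AP-1 motif, 142 bases before the start.
Vcan: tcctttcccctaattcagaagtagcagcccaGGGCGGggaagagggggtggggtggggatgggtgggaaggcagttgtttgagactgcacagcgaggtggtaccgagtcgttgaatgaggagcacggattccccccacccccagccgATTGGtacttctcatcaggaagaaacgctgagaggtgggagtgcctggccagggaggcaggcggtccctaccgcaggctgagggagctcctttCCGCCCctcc
Tnfaip6: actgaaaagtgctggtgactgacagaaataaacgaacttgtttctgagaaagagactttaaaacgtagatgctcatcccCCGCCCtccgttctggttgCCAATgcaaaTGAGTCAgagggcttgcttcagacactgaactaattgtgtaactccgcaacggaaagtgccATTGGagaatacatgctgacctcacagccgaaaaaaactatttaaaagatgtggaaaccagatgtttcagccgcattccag

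The hyaluronidases differed between the cultures in Hyal1 far more than in Hyal2. Hyal2, a cell surface enzyme that cuts long chains into fragments, lies on chromosome 9 of mm9, plus strand, from 107471448 to 107475107. Its 335 reads in supportive ISEMFs gave an RPKM of 2.48 and its 443 in non-supportive ISEMFs one of 3.37, 1.36-fold lower (interval 1.18 to 1.57). Hyal1, the lysosomal enzyme that digests the fragments further, lies downstream on the same strand, from 107479258 to 107485174. Its 493 reads in supportive ISEMFs gave an RPKM of 1.57 and its 110 in non-supportive ISEMFs one of 0.361, a ratio of 4.36 (interval 3.54 to 5.41) and a log2 ratio of 1.86. Hyal2 stood at 9.34 times Hyal1 in non-supportive and at 1.58 times Hyal1 in supportive ISEMFs, while the sum of both was 4.05 in supportive and 3.73 in non-supportive ISEMFs. Of the 3804 exon bases of Hyal1 in the annotation, 1947 are shared with Nat6 and 159 with Hyal3 on the same strand. The authors' counting left out reads not assigned to a single gene, which can lower the level of Hyal1 and leaves its split from these genes uncertain. Nat6 had 158 and 114 reads, and Hyal3 17 and 11. The window before Hyal1 (GRCm38.p6, chr9:107576700-107576949, plus strand) is shown as that of the hyaluronidase past 2-fold. Capitals mark a CCAAT box and 2 GC boxes that share a letter.
Hyal1: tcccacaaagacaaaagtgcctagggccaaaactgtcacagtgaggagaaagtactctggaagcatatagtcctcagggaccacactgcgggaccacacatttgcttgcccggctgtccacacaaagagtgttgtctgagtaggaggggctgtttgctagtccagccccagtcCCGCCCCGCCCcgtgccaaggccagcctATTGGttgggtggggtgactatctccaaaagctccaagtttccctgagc

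In order of RPKM, supportive ISEMFs had Vcan, Cd44, Hmmr and Hyal2, then Hyal1, Has2 and Tnfaip6, whose neighbours in the order had overlapping intervals, then Has3 and Has1, which overlapped as well. Non-supportive ISEMFs had Cd44, Has2, Vcan, Hmmr and Hyal2, each apart from the next beyond counting error, then Hyal1, Has3, Tnfaip6 and Has1, each overlapping the next. The order depends on the exon length that divides the reads. The deposited length of Cd44 is 1.80 times, of Vcan 1.89 times, of Hmmr 1.54 times and of Hyal1 1.15 times that of the GENCODE vM1 annotation, and with the latter Vcan, at 14.6, stood above Has2, at 11.8, in non-supportive ISEMFs. Hyal1 was then at 1.81 (interval 1.66 to 1.98) in supportive and 0.416 (0.342 to 0.502) in non-supportive ISEMFs, and no longer overlapped Has2 in the former or Has3 in the latter. Ratios between the libraries do not change with the length.

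**Figure D2:**
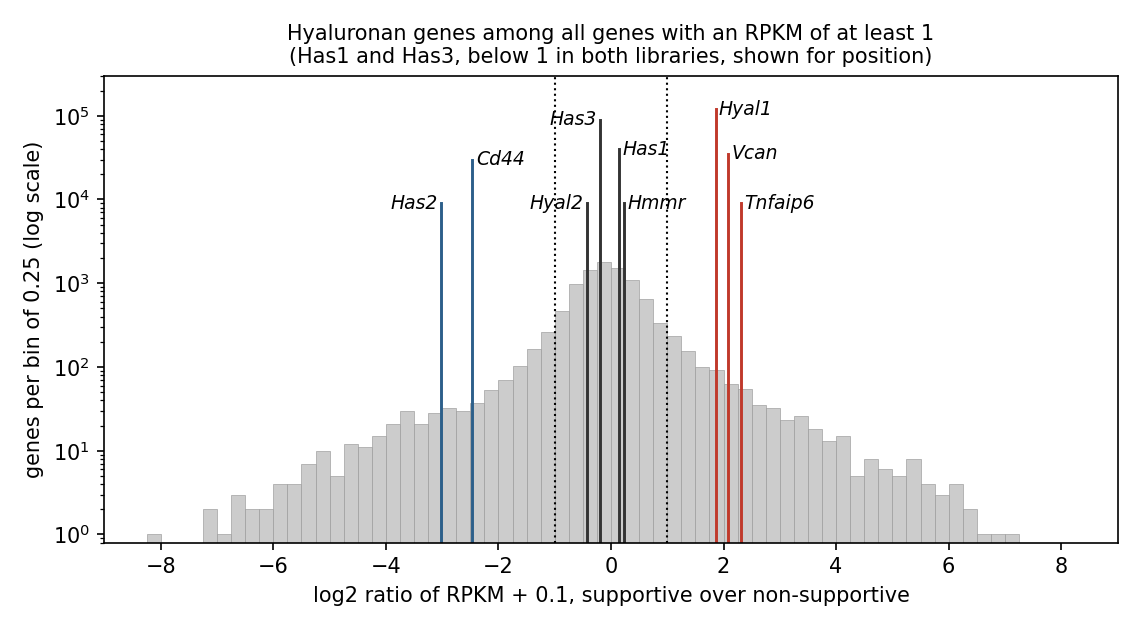
Histogram of the log2 ratio of RPKM + 0.1, supportive over non-supportive, for the 10086 genes that reached an RPKM of 1 (genes per bin on a log axis), with a line for each of the 9 genes; line heights only separate the labels, and dotted lines mark 2-fold. Has2 and Cd44 lie at -3.02 and -2.46, Hyal1, Vcan and Tnfaip6 at 1.86, 2.08 and 2.31, and the other 4 between -0.43 and 0.23.

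How far these ratios exceed variation between cultures is unknown. When cultures were taken to vary by a coefficient of variation of 0.4 (edgeR's exact test, Benjamini-Hochberg adjustment over 21596 genes with a read), Has2 was called lower and Tnfaip6 higher, and Cd44, Vcan and Hyal1 were not called. That test called 2.03% of genes higher and 2.96% lower. With a pseudocount of 1, or a minimum RPKM of 5, Has2, Cd44 and Vcan still counted as 2-fold different and Tnfaip6 and Hyal1 did not.

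The enzymes that supply UDP-sugars differed little, apart from the first step. Of 7 listed genes, 6 had an RPKM of at least 1, and only Gfpt2 was at least 2-fold different. Gfpt1 and Gfpt2 both encode the enzyme that admits fructose 6-phosphate to the hexosamine pathway. Gfpt2 had 12 reads in supportive and 777 in non-supportive ISEMFs, RPKM values of 0.0300 and 2.0, and was 66.6-fold lower in supportive ISEMFs (interval 37.9 to 130). Gfpt1 was much more abundant and went the other way, at 45.5 in supportive and 23 in non-supportive ISEMFs, a ratio of 1.98 (interval 1.94 to 2.02) that passed 2-fold under each of the 4 other scalings tried. Ugdh, which makes UDP-glucuronic acid, was at 4.62 and 6.54, and Pgm3 at 3.18 and 4.35.

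Among 14 further hyaluronan-binding proteins, 4 had an RPKM of at least 1, of which 2 were at least 2-fold higher and none lower in supportive ISEMFs. Hapln4, a link protein that fixes proteoglycans to hyaluronan, was at 3.65 in supportive and 0.205 in non-supportive ISEMFs, a ratio of 17.8 (interval 13.4 to 24.1). Ptx3, a pentraxin that works with TSG-6 in the hyaluronan matrix around the oocyte, was at 2.29 and 0.929. The receptor layilin, encoded by Layn, was at 16.1 and 8.77, and C1qbp at 21.8 and 30.7. Below that level, the receptor Stab1 had 0 reads in supportive and 83 in non-supportive ISEMFs, at least 28.5-fold lower. Lyve1 had 3 and 55, 18.9-fold lower (interval 6.13 to 94.3). Stab2 had 15 and 13 reads, Acan had 51 and 0, at least 16.5-fold higher, and Habp2 had no read in either. With no minimum RPKM, 1 gene of the list counted as lower, and in edgeR's exact test with the assumed variation 2 did.

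The partners of TSG-6, the heavy chains of inter-alpha-inhibitor, are made mainly by liver. Of the 6 listed genes, Itih3 alone had an RPKM of at least 1, at 4.09 in supportive and 0.0148 in non-supportive ISEMFs. It had 1427 reads against 5, a ratio of 277 with an interval from 119 to 856, the largest of any gene in the 7 pathway lists with reads in both libraries. Itih2 had 244 reads in each library, Itih5 had 93 and 15, and Ambp, the gene of the light chain bikunin, had none.

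Of 10 further breakdown genes, 5 had an RPKM of at least 1 and 1 was at least 2-fold different. Cemip, which is needed for hyaluronan breakdown in skin fibroblasts, had 479 reads in supportive and 1868 in non-supportive ISEMFs, RPKM values of 0.473 and 1.90, and was 4.01-fold lower in supportive ISEMFs (interval 3.63 to 4.45). Tmem2, its membrane-bound relative, was at 7.47 and 9.44. The lysosomal exoglycosidases Hexa and Gusb, which finish the fragments, were at 40.4 and 7.64 in supportive and at 31.3 and 6.58 in non-supportive ISEMFs. Hyal4, Hyal5 and Spam1 had no read in either library.

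Around Cd44, 7 of 8 listed ligands, anchors and sheddases had an RPKM of at least 1, with 2 at least 2-fold higher and 2 at least 2-fold lower in supportive ISEMFs. Spp1, the gene of osteopontin, was at 1.06 in supportive and 28.9 in non-supportive ISEMFs, 27.3-fold lower (interval 24.6 to 30.2). The proteins that tie Cd44 to actin differed among themselves, with Msn at 182 and 393, Rdx at 35.5 and 57.5, and Ezr at 5.53 and 1.72. Msn was no longer past 2-fold when mitochondrial ribosomal RNA was left out of the library size. Mmp14, a membrane protease that sheds Cd44, was at 86.0 and 42.6, a ratio of 2.02 whose interval reached below 2 (1.97 to 2.08).

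Of 6 proteases that cleave versican, 3 had an RPKM of at least 1, of which 2 were at least 2-fold higher in supportive ISEMFs. Adamts5 was at 82.6 in supportive and 2.52 in non-supportive ISEMFs, a ratio of 32.7 (interval 31.1 to 34.6). Adamts1 was at 47.9 and 5.46, a ratio of 8.77, and Adamts4 at 9.69 and 5.03. Adamts5, Adamts1 and their substrate Vcan were thus higher in the same library. Without a minimum, 3 of the 6 had a higher and 3 a lower RPKM in supportive ISEMFs. Adamts15 had 0 reads in supportive and 22 in non-supportive ISEMFs, at least 7.55-fold lower. In edgeR's exact test with the assumed variation, 2 of the list were called higher and 1 lower. Over the 37 genes of the 7 pathway lists that reached an RPKM of 1, 7 were past 2-fold on the supportive and 4 on the non-supportive side, against 9.01% and 9.27% of all genes at that level, and the median log2 ratio was 0.24, against -0.07. Of these 11 genes, Hapln4, Ptx3, Itih3, Gfpt2 and Cemip reached the level only in the library where they were high, so the count is a description.

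**Figure D3:**
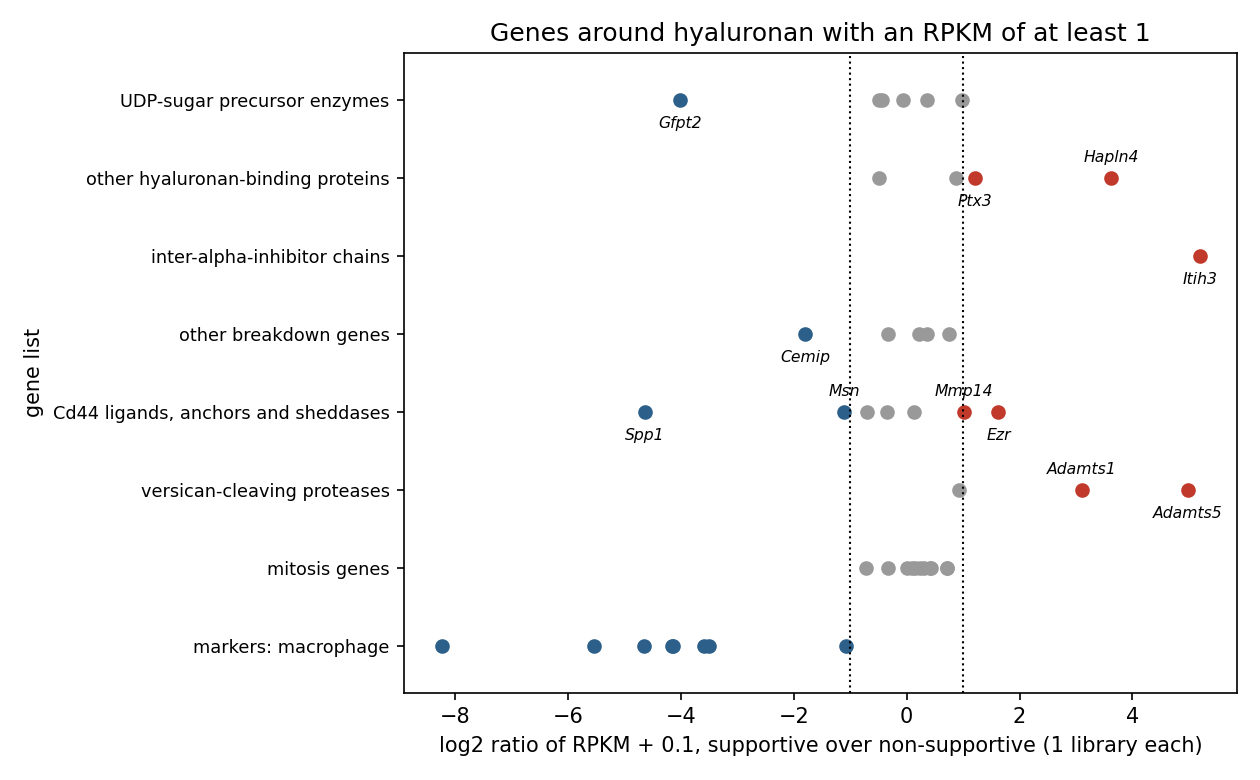
Log2 ratio of RPKM + 0.1, supportive over non-supportive, of each gene that reached an RPKM of 1 in 7 lists around hyaluronan and in the macrophage markers; red points are at least 2-fold higher, blue points at least 2-fold lower, grey points in between, and dotted lines mark 2-fold. Itih3, Adamts5 and Hapln4 lie farthest right, Spp1 and Gfpt2 farthest left of the pathway lists, the mitosis genes stay within 2-fold, and all 8 macrophage markers lie beyond it on the left.

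Of the labelled cell type, the markers Acta2, at 908 and 1410 in supportive and non-supportive ISEMFs, and Vim, at 325 and 407, were present. The study reported very weak desmin staining of its isolated ISEMFs and negligible desmin by qPCR relative to whole intestine. For the non-supportive cells it reported low desmin, without showing the data. RPKM is another measure, without that reference tissue. Here Des was at 0.575 and 3.40, 5.92-fold lower in supportive ISEMFs (interval 5.05 to 6.98). Smooth muscle markers were present in both, with summed RPKM values of 357 and 590. Of the 4, 2 were at least 2-fold lower in supportive ISEMFs. Myh11 was at 26.3 and 108, 4.11-fold lower, and Cnn1 at 78.6 and 187, 2.37-fold lower, while Actg2 was at 247 and 292 and Smtn at 4.88 and 3.16. The part of smooth muscle cells in the differences of Has2 and Cd44 was not tested. Defining markers of other types were near 0, with at most 8 reads for Epcam, Cdx2, Pecam1, Cdh5, Msln and Sox10 in either library. Single genes of those lists were nonetheless at an RPKM of at least 1, namely Krt20 (0.0799 and 3.13), Prox1 (1.33 and 0.143) and S100b (6.69 and 0.116). The pericyte list had summed values of 5.16 and 5.60, but its genes differed among themselves. Rgs5 was at 0.578 and 2.37, 4.10-fold lower in supportive ISEMFs (interval 3.49 to 4.84), and Cspg4 was at 4.44 and 3.04. The mesothelial list had summed values of 0.133 and 0.650. Reads on genes numbered 50674472 and 49615497, so 3 reads, the most that a count of 0 allows, are 5.92e-06% and 6.05e-06% of them.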

How the data were processed

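RNA sequencing data of 1 library of supportive and 1 library of non-supportive ISEMFs were used, grouped by the population that each title states. Per the labels and the study's methods, the authors aligned 50-base single-end reads to mm9 with TopHat2 2.0.4, using Ensembl genes, allowed 2 mismatches and unique hits only, and counted reads with HTSeq 0.5.4p3. The deposited counts are whole reads per gene, and reads that fell on more than a single gene were left out. The RPKM values that the authors deposited divide those counts by exon length and library size, and recomputed values deviated by at most 1.2e-06 of the value. Lengths are the union of a gene's exons, and the Ensembl release is not given in the sources used here. The authors' log2 ratio and DESeq p-values were not used.

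Log2 ratios carry a pseudocount of 0.1, which understates differences of low genes. Intervals are exact Clopper-Pearson intervals of a gene's share of both libraries' reads, or exact Poisson intervals of a level, at 95%. Since 1 library per group leaves no residual spread for a quasi-likelihood or DESeq2 test, edgeR's exact test was run with an assumed coefficient of variation of 0.4 and DESeq2 gave size factors only. The alternatives were other pseudocounts, minimum values, scalings and a 4-fold threshold. Named from each pathway list are up to 4 genes with the largest log2 ratio and from each marker list up to 4 by RPKM; Rdx, Gusb, Itih2, Itih5, the genes given for 0 or few reads and the macrophage genes given by reads were named after their values were seen, and 1 gene that the rule names is not reported here. A gene without reads in 1 library has a bound at 3 reads, and with 1 to 3 reads a ratio with its interval, where the fixed design asked for a bound. The members and lists were chosen with earlier results of these data known, and the chondroitin sulfate list was added after the first tables. Coordinates are from GENCODE vM1 on NCBIM37 (mm9), promoter windows from RefSeq on GRCm38.p6. Ratios and calls were tested on simulated data. Tools were edgeR 4.0.16 and DESeq2 1.42.0 in R 4.3.3, and scipy 1.17.1, numpy 2.4.6 and pandas 2.3.3 in Python 3.11.15, with figures by matplotlib 3.10.9. The Wnt pathway table, a selection of the same rows, was not used. Exon lengths of GENCODE vM1 were an alternative chosen after seeing the data.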

Additional observations from a re-analysis of the deposited data

How the results depend on the processing

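With 1 library per population, the variation between cultures could not be estimated, and no paired analysis was possible because each population has 1 library. The count of 3 genes at least 2-fold higher in supportive ISEMFs came to 1 with a pseudocount of 1 and to 1 with a minimum RPKM of 5. In edgeR's exact test with an assumed variation of 0.4, 1 of the 9 genes was called higher, Tnfaip6. That test sets no fold or RPKM threshold. Against the 2 genes at least 2-fold lower, it called 1 lower, Has2. The cause was not tested. The 11 genes of the pathway lists past 2-fold came to 6 with a minimum RPKM of 5 and to 6 at a 4-fold threshold. Counting intervals excluded a ratio of 1 for 7 of the 9 genes, also under all 4 other scalings; the choice of pseudocount or minimum does not enter them. The size of the log2 ratio ranged most for Tnfaip6, from 0.93 to 2.86, for Hyal1, from 0.92 to 2.12, and for Has2, from -3.11 to -2.43, under the pseudocounts and scalings, and for no gene of the 9 did its sign change. Leaving mitochondrial ribosomal RNA, 13.5% and 7.13% of the reads on genes, out of the library size shifted the ratio of each gene by 0.11 on the log2 scale before the pseudocount, and low genes by less with it (Has1 from 0.14 to 0.21), and gave 1060 genes higher and 783 lower, against 909 and 935. All genes past 2-fold numbered 578 higher and 621 lower with a pseudocount of 1. They numbered 412 and 466 with a minimum RPKM of 5, and 1775 and 1885 with none. Past 4-fold were 327 and 332. Called in edgeR's exact test, at any fold and RPKM, were 439 and 639. Has1, with 22 and 18 reads, and Tnfaip6, with 20 in the non-supportive library, are the genes whose depth limits precision most.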

Other observations

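Versican carries chondroitin sulfate chains, and the enzymes that build them were listed after the first tables but before their own values were seen. Of 18 genes, 14 had an RPKM of at least 1, of which 2 were at least 2-fold higher and 3 at least 2-fold lower in supportive ISEMFs, against 9.01% and 9.27% of all genes at that level. The median log2 ratio was -0.10, against -0.07 over all of them. The 2 higher genes were those that start the chain on the linker. Csgalnact1 was at an RPKM of 6.01 in supportive and 1.36 in non-supportive ISEMFs, a ratio of 4.41 (95% exact interval of the reads, 4.04 to 4.83), and Csgalnact2 was at 7.08 and 2.84, a ratio of 2.49 (2.34 to 2.65).

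The 3 lower genes encode sulfotransferases, which add sulfate to the chain. Another sulfotransferase gene, Ust, was at 1.32 and 1.26. Chst15, which forms the disulfated E unit, was at 2.30 in supportive and 10.8 in non-supportive ISEMFs, 4.71-fold lower (interval 4.39 to 5.07). Chst11 was at 2.14 and 5.63 and Chst12 at 3.89 and 10.2, both encoding enzymes that sulfate the 4 position. Chst3, which sulfates the 6 position, had 124 reads in supportive and 10 in non-supportive ISEMFs, at RPKM values of 0.128 and 0.0107. Of the genes that lengthen the chain, Chsy1 was at 13.2 and 15.7, and Chsy3 at 0.467 and 1.03, 2.20-fold lower (interval 1.78 to 2.73) but short of 2-fold with the pseudocount, at a log2 ratio of -0.99. Dse and Dsel, which convert it toward dermatan sulfate, were at 16 and 10.5 in supportive and at 11.5 and 8.87 in non-supportive ISEMFs. These are levels of transcripts, and neither chain length nor sulfation was measured.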
